A study of Mus musculus with 11 samples.

Results

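The TRIM (tripartite motif) genes of mouse macrophages were followed through 1 comparison, 4 libraries of CYR61-treated cells against 7 libraries of control cells. Members were the genes whose symbol is Trim followed by a number and whose biotype is protein coding. The rule found 68 of 55487 gene IDs, of which 44 had enough counts to be tested. TRIM proteins share a RING finger, which passes ubiquitin to a target, 1 or more B-boxes and a coiled coil, and differ in their C-terminal part. A few members, such as Trim14, lack the RING. Many members act in innate immunity: some tag sensors of viral RNA or DNA with ubiquitin, some bind viral capsids, and a subset is switched on by interferon in macrophages. Others act in the nucleus or on the cytoskeleton.

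All cells were bone marrow-derived macrophages of C57BL/6J mice aged 2 to 5 months, grown for 5 to 6 days with 10% CMG-conditioned medium and then kept in 2%. The CYR61 group received 0.5 µg/ml of the recombinant matrix protein CYR61 (CCN1), which binds integrins, for 24 h. The control group received 0 µg/ml; no vehicle is named for it in the labels. RNA depleted of ribosomal RNA was sequenced as paired reads of 150 bases. The libraries held 17390294 to 20760369 counts with CYR61 and 14912152 to 21047692 counts in controls. No label ties a library to a mouse or a culture of its own, and the p-values therefore rest on a between-library spread that may be technical. Levels are in CPM, the gene's counts relative to a library size scaled by TMM factors, and are given as mean ± SD with n = 4 CYR61 and n = 7 control libraries. Fold changes are CYR61 over control with the SE of the log2 value, from edgeR's quasi-likelihood test. The p-values were adjusted by Benjamini-Hochberg across the 15135 tested genes, 0.05 being the threshold for a call. The 95% intervals were built from that SE with the normal distribution and were not adjusted for the number of genes. They can therefore exclude a fold of 1 in a gene that did not pass, even where its unadjusted p is above 0.05. Trim36 is an example, with an interval of 0.790 to 0.995 at an unadjusted p of 0.0564 (edgeR). The intervals are thus somewhat narrower than that test allows. The 8 macrophage marker genes examined were all expressed, with summed levels of 24710 to 26920 CPM with CYR61 and 22340 to 23730 CPM in controls. Of the 8, 5 rose (62.5%, beside 5.33% of all genes tested). They were Fcgr1 (1.63-fold), Itgam (1.31-fold), Adgre1 (1.23-fold), Lyz2 (1.13-fold) and Csf1r (1.09-fold). For these 5 all CYR61 libraries lay above all controls, an order that 4.65% of all genes had. Cd68, Mertk and Cd14 did not pass. Of 8 neutrophil markers, 7 stayed under a mean of 1 CPM and Ly6g had no count. The sums were 1.66 to 2.12 CPM with CYR61 and 0.785 to 1.39 CPM in controls. The remaining marker, S100a8, rose 1.74-fold (1.69 ± 0.153 CPM with CYR61 and 0.970 ± 0.264 CPM in controls, adjusted p = 0.0213, edgeR). The endothelial list, in which Vwf fell, summed to 121.7 to 143.4 CPM with CYR61 and 148.7 to 162.5 CPM in controls. Most of that sum was Vwf itself, at 120.7 ± 8.14 CPM with CYR61 and 145.6 ± 5.09 CPM in controls. Cdh5, Pecam1, Tek, Emcn and Cldn5 stayed under a mean of 1 CPM, and Kdr and Egfl7 did not pass. The sums of the T cell, dendritic cell and stromal lists overlapped between the groups, and Cd3e, Cd3g and Lum had no count. The part of these shifts in the results below was not tested.

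The sequences shown are those around the RefSeq start sites of the genes the results turn on, because most of the TRIM genes that rose carry the same short motif there. That motif is the core of the interferon-stimulated response element (ISRE), a site bound by interferon regulatory factors, searched as GAAA, any 2 bases and GAAA again, on either strand (TTTC, any 2 bases and TTTC on the other). Each line runs 5′ to 3′ on the gene's strand from 100 bases before the start site through the first 30 bases after it, with letters that match the motif in capitals.
Trim30a: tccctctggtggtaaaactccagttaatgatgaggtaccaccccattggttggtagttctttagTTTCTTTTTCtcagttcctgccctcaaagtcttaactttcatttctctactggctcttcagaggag
Trim30d: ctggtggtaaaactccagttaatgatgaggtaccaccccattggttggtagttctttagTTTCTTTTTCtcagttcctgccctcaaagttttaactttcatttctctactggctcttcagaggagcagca
Trim12c: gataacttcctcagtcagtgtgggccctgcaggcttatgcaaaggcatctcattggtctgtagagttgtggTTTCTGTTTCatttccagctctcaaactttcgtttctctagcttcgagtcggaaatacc
Trim34a: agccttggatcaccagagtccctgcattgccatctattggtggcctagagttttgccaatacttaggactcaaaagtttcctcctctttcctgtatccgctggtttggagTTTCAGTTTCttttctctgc
Trim21: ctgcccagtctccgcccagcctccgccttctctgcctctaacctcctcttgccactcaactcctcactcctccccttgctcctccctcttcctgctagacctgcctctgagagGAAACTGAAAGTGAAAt
Trim30c: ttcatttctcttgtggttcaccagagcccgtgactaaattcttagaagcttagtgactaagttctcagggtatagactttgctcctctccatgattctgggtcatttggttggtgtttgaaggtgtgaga
Trim5: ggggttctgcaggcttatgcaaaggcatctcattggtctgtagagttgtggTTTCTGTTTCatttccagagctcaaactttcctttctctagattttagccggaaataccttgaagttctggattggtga
Trim12a: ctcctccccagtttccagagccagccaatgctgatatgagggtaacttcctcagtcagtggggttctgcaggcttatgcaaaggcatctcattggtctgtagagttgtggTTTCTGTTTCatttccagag
In RefSeq GRCm38.p6 these stretches lie at chr7:104465164-104465293 for Trim30a, chr7:104507820-104507949 for Trim30d, chr7:104353320-104353449 for Trim12c, chr7:104244357-104244486 for Trim34a, chr7:102565453-102565582 for Trim21, chr7:104400749-104400878 for Trim30c, chr7:104288077-104288206 for Trim5 and chr7:104315466-104315595 for Trim12a. Trim34a is on the plus strand and the other 7 on the minus strand. Trim30a has a second RefSeq start whose window also holds the motif. Trim21 has 2 overlapping matches, which form 1 run of capitals. Trim30c rose and has no match in its window, and Trim5 and Trim12a have a match and did not pass the test.

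Windows of 250 bases before to 50 after the start were found for 33 of the 44 TRIM genes tested, and 9 of these (27.3%) held the ISRE letters, against 3.88% of the 10040 tested genes with a window and 3.44% of all 32851 windows. The motif was present in 5 of the 6 members that rose and in 4 of the 27 others with a window, namely Trim2, Trim5, Trim12a and Trim26. These matches are not independent of each other. The Trim30a and Trim30d windows share an identical run of 118 bases, those of Trim5 and Trim12a a run of 241 bases, and Trim12c shares 71 bases with each of the last pair. The letters TTCNNNGAA, the core of the gamma-activated site (GAS), were in 4 of 33 member windows, those of Trim15, Trim30c, Trim45 and Trim46, against 8.08% of tested genes; none of these 4 windows holds the ISRE letters. A match describes the letters and does not show binding.

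The TRIM genes that rose with CYR61 were Trim30a, Trim30d, Trim30c, Trim12c, Trim34a and Trim21, and Trim59 fell. That is 6 higher of 44 tested (13.6%), where 5.33% of all genes tested were called higher, and 1 lower, where 2.63% of all genes were. Calls in either direction made up 7.96% of all genes. The other 37 members did not pass. All CYR61 libraries lay above all controls in 6 members, where 4.65% of all genes had this order, and below them in 0, where 2.5% of all genes did. These 6 were Trim30a, Trim30b, Trim30c, Trim30d, Trim12c and Trim21. They are not the same 6 as the rises, because Trim30b did not pass and the groups overlapped for Trim34a. In bulk RNA, a change in the share of cells that express a gene and a change in RNA per cell cannot be told apart. Apart from Trim30c, at 1.83-fold, the rises were 1.12- to 1.27-fold. The median fold change of the 44 members was 1.02 (log2 0.02), beside a log2 median of -0.0076 over all genes tested, and 23 of the 44 had a positive log2 fold change. All 6 rises were among the 15 tested genes of a list of TRIM genes known to respond to interferon, whose median fold was 1.12. That list includes all 10 relatives of Trim5, Trim30 and Trim34 described below, which hold 5 of the 6 rises. Its other tested genes were Trim14, Trim21, Trim25, Trim26 and Trim56. Of these Trim21 alone passed, and Trim26 and Trim56 lay at 0.982- and 0.989-fold. The list was chosen with earlier results of these data known. The split between it and the other members is therefore a description, and a link to interferon was not tested. Among the 29 tested members outside that list, 0 were higher and 1 was lower by edgeR's adjusted p, and their median fold was 0.978; at an unadjusted p under 0.05 the counts were 1 and 3, and DESeq2 and limma-voom also called 0 higher and 1 lower by adjusted p. In the same 29, Trim46 was furthest above control, at 1.35-fold with an adjusted p of 0.232 (edgeR).

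**Figure D1:**
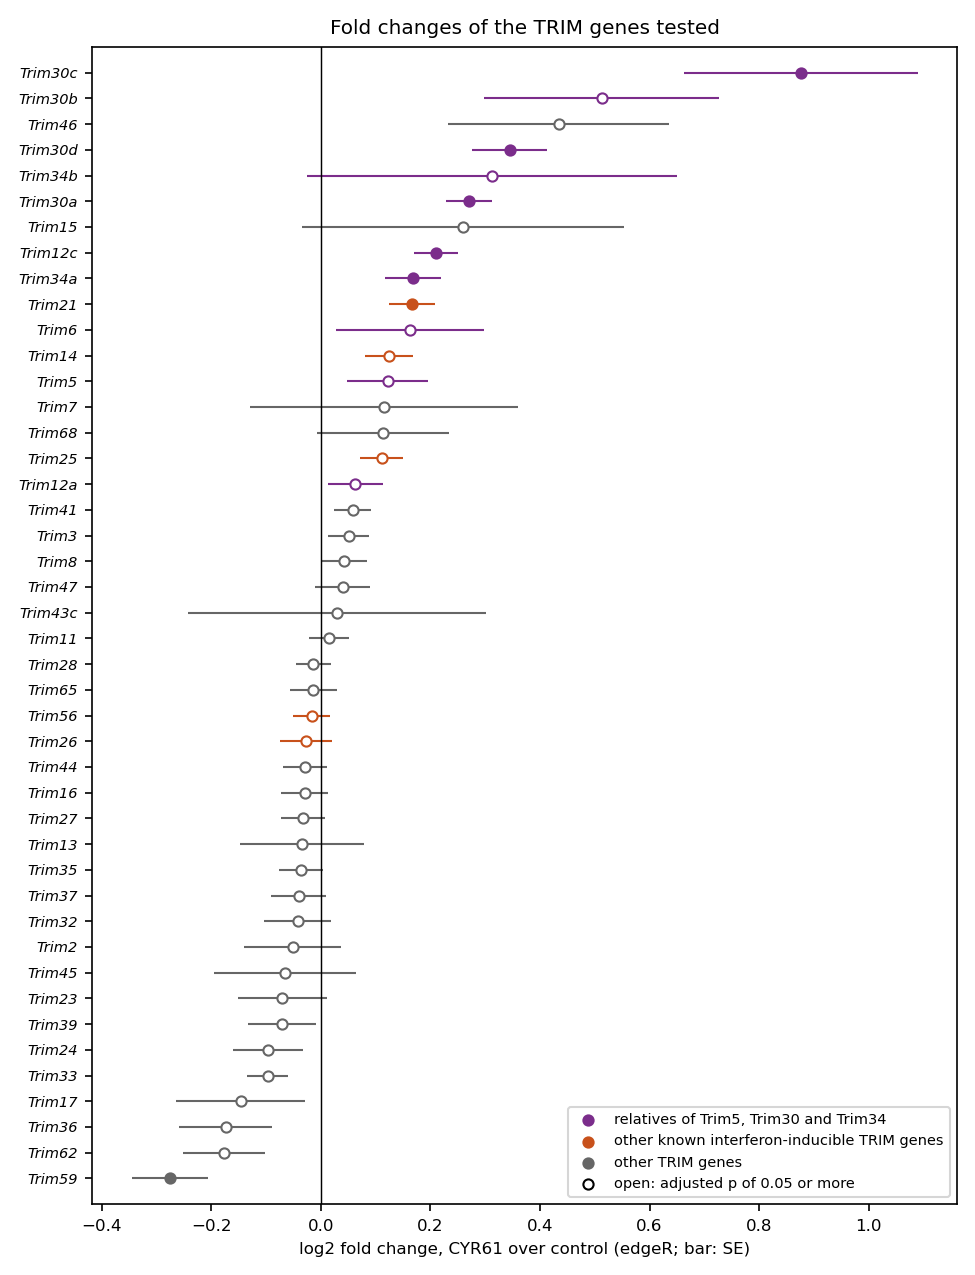
Log2 fold change of each of the 44 TRIM genes tested, CYR61 over control, with the SE from edgeR as a bar; filled points passed an adjusted p of 0.05 and colours mark gene lists. All 10 relatives of Trim5, Trim30 and Trim34 lie to the right of 0, against 47.5% of all genes. Of them 5 passed as higher, beside 5.33% of all genes.

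Of the 6 rises, 5 belong to the relatives of Trim5, Trim30 and Trim34, a set of 10 genes that follow each other on mouse chromosome 7 in RefSeq, with 1 other gene among them, and that includes the counterparts of the primate retrovirus restriction factor TRIM5. All 10 were tested and all 10 had a positive log2 fold change, against 47.5% of all genes. By edgeR's adjusted p, 5 were higher (50%, beside 5.33% of all genes) and 0 lower (beside 2.63%), with a median fold of 1.18. At an unadjusted p under 0.05, 6 were higher and 0 lower (edgeR). DESeq2 called 5 of them higher and limma-voom 4. Trim21, the sixth, lies on the same chromosome outside this cluster. The genes share sequence, so their counts are not fully separate measurements.

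Trim30a, a ligase gene that in mouse limits Toll-like receptor signalling by removing TAB2 and TAB3, had the lowest p of the 44 members tested. It measured 116.6, 122.2, 120.4 and 118.6 CPM with CYR61, and 88.8, 100.5 and 107.8 CPM as the lowest, median and highest control. Every CYR61 library lay above every control. The rise was 1.21-fold (log2 0.27 ± 0.042 SE, adjusted p = 0.000346, edgeR), with means of 119.5 ± 2.41 CPM with CYR61 and 99.1 ± 6.12 CPM in controls. Trim30d, its close relative, measured 36.4, 36.4, 32.3 and 38.4 CPM with CYR61, and 24.1, 28.0 and 32.0 CPM as the lowest, median and highest control. CYR61 replicate 3 stood just above the highest control and the other CYR61 libraries well above it. Trim30d rose 1.27-fold (log2 0.34 ± 0.069 SE, adjusted p = 0.00336, edgeR).

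Trim30c was expressed at a low level, with 57 counts at most in a library. It measured 2.27, 2.81, 2.93 and 2.07 CPM with CYR61, and 0.817, 1.45 and 1.88 CPM as the lowest, median and highest control. The groups did not overlap, and the fold was 1.83 (log2 0.88 ± 0.21 SE, adjusted p = 0.0152, edgeR), with a 95% interval of 1.37 to 2.45. The call was lost without CYR61 replicate 2 or 3, with 0.0642 as the highest adjusted p over the alternatives. Trim30b, with 1.44, 1.78, 1.35 and 1.42 CPM with CYR61 and a control range of 0.655 to 1.34 CPM around a median of 1.05 CPM, did not overlap either but did not pass (1.43-fold, 95% interval 1.07 to 1.91, adjusted p = 0.175, edgeR).

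Trim12c, which in mouse has been tied to TRAF6-dependent signalling, measured 42.9, 46.1, 44.7 and 44.9 CPM with CYR61, and 36.5, 38.4 and 42.2 CPM as the lowest, median and highest control. The groups did not overlap, though control replicate 7 came close to the lowest CYR61 library. It rose 1.16-fold (log2 0.21 ± 0.040 SE, adjusted p = 0.0025, edgeR). Trim34a measured 42.4, 43.5, 37.7 and 41.1 CPM with CYR61, and 33.7, 36.6 and 40.0 CPM as the lowest, median and highest control. CYR61 replicate 3 lay inside the control range. Its rise of 1.12-fold was at the edge of the threshold (log2 0.17 ± 0.050 SE, adjusted p = 0.0491, edgeR) and was lost in 15 of 23 alternatives. The 4 remaining relatives lay at 1.04-fold (Trim12a, 33.0 ± 1.93 CPM with CYR61 and 31.6 ± 1.70 CPM in controls), 1.09-fold (Trim5), 1.12-fold (Trim6) and 1.24-fold (Trim34b), with adjusted p-values of 0.385 to 0.664 (edgeR). They were named for their place in the cluster.

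**Figure D2:**
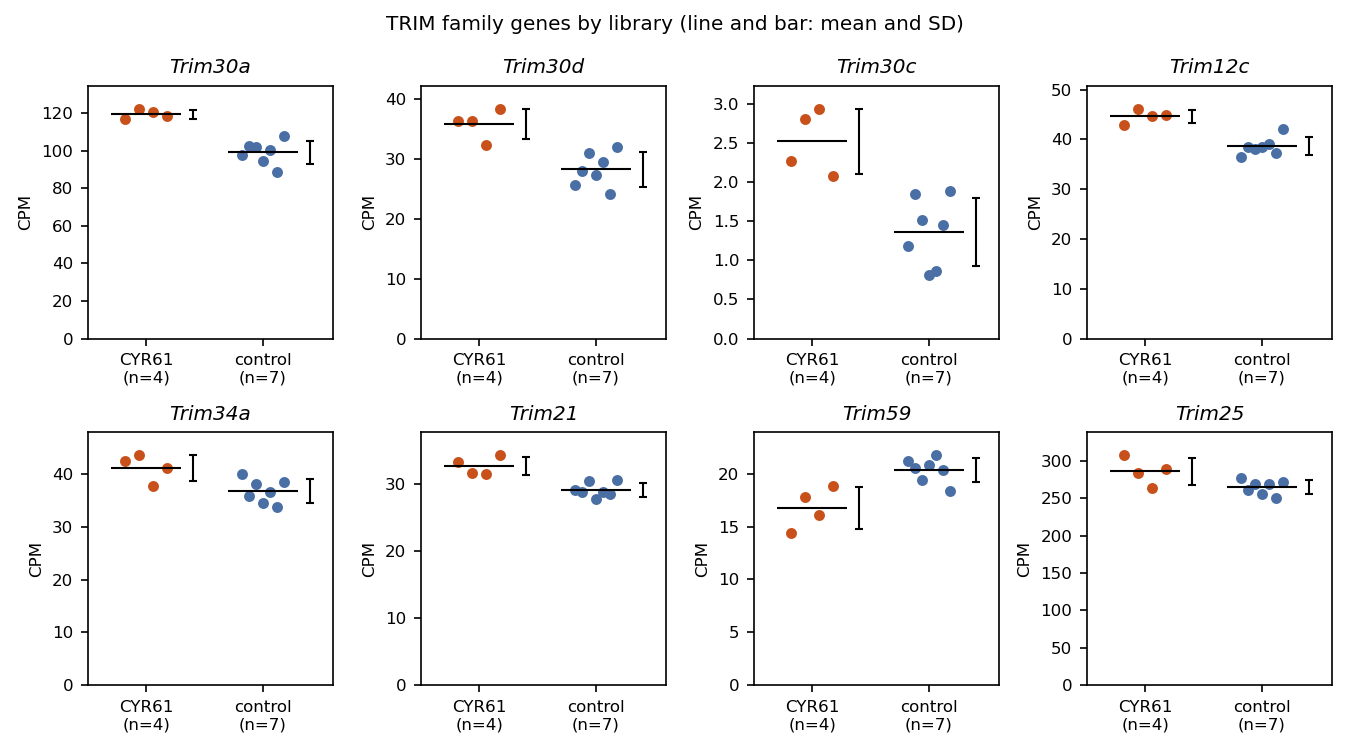
Level in CPM (vertical axes, from 0) of 8 TRIM genes in each of the 4 CYR61 and 7 control libraries, with the group mean as a line and the SD as a bar. The groups do not overlap for Trim30a, Trim30d, Trim30c, Trim12c and Trim21, and they overlap for Trim34a, Trim59 and Trim25.

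Because the deposited counts are estimates that can share reads between similar genes, the overlap between relatives was measured. In GENCODE M21 transcripts, 4.4% of the 100-base windows of Trim30a also occur in another gene, always Trim30d, and 4.6% of those of Trim30d occur in Trim30a. The share was 8.1% for Trim12c (Trim5 and Trim12a) and 39.0% for Trim34a, chiefly Trim34b and an antisense gene, Gm47248, that averaged 0.022 CPM. Estimated counts were not whole, to within 1e-06 of a count, in all 11 libraries for Trim30a, Trim30d and Trim12c, in 10 for Trim34a and in 0 for Trim30c and Trim21. Summed over Trim30a, Trim30b, Trim30c, Trim30d and the pseudogene Trim30e-ps1, which had no count, the level was 156.7, 163.2, 157.1 and 160.5 CPM with CYR61 and 115.0 to 143.1 CPM in controls. Trim5, Trim12a and Trim12c together came to 89.6, 95.9, 89.9 and 89.7 CPM with CYR61 and 76.4 to 86.5 CPM in controls. Neither sum overlapped between the groups. The sum of Trim34a and Trim34b did, at 38.1 to 43.9 CPM with CYR61 and 34.0 to 40.2 CPM in controls.

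Trim21 encodes a cytosolic antibody receptor that directs antibody-coated pathogens to the proteasome. It measured 33.3, 31.6, 31.5 and 34.2 CPM with CYR61, and 27.7, 28.8 and 30.5 CPM as the lowest, median and highest control. All CYR61 libraries lay above all controls by a narrow margin. It rose 1.12-fold (log2 0.17 ± 0.043 SE, adjusted p = 0.0203, edgeR), and the call was lost in 6 of 23 alternatives. Its adjusted p was 0.0812 without CYR61 replicate 4, 0.0814 with scaling by library size alone, 0.0924 with the replicate block, 0.0519 in the same 8 libraries without it and 0.233 without CYR61 replicates 1 and 4 together (edgeR), and it also missed a threshold of 0.01. Among the 11 tested TRIM genes of innate signalling outside the cluster, Trim21 was the 1 that passed, which is 9.09% and near the 5.33% of all genes called higher; the list's median fold was 0.989.

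Trim25, the ligase that ubiquitinates the RNA sensor RIG-I, had the highest level per length of the family. It measured 307.4, 284.2, 264.0 and 289.1 CPM with CYR61, and 250.5, 269.4 and 277.9 CPM as the lowest, median and highest control. CYR61 replicate 3 lay inside the control range and the other 3 above it. The fold of 1.08 did not pass (95% interval 1.02 to 1.14, adjusted p = 0.1, edgeR), and passed without CYR61 replicate 3 (adjusted p = 0.0317, the lowest over the alternatives; the highest was 0.594). Trim14, an adaptor of the MAVS and cGAS pathways, lay at 1.09-fold (53.4 ± 3.41 CPM with CYR61 and 49.0 ± 2.23 CPM in controls, adjusted p = 0.0999, edgeR); it was named after its values were seen. In GENCODE M21, 31.3% of its exon length overlaps Nans on the opposite strand, and no source used here states the strand of the libraries, so reads from that overlap may belong to either gene; Nans averaged 53.4 CPM in both groups.

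Trim59, which encodes a ligase anchored in membranes by a transmembrane segment, was the member that fell. It measured 14.4, 17.9, 16.1 and 18.8 CPM with CYR61, and 18.4, 20.6 and 21.8 CPM as the lowest, median and highest control. CYR61 replicate 4 lay just above the lowest control, so the groups overlapped. The level fell by 17.4% (0.826-fold, log2 -0.28 ± 0.069 SE, adjusted p = 0.0181, edgeR), and the call was lost without CYR61 replicate 1 or 3. Trim62 was next below control, at 10.0 ± 0.640 CPM with CYR61 and 11.4 ± 0.948 CPM in controls (0.885-fold, 95% interval 0.799 to 0.979, adjusted p = 0.178, edgeR).

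The TIF1 group of nuclear cofactors had 3 tested members, Trim24, Trim28 and Trim33, with 0 called by the adjusted p of edgeR, DESeq2 or limma-voom, 1 lower at an unadjusted p under 0.05 and a median fold of 0.935. Trim28, the corepressor of KRAB zinc finger proteins, measured 119.4, 110.5, 111.8 and 117.6 CPM with CYR61 and 110.8 to 121.1 CPM in controls (0.991-fold, 95% interval 0.948 to 1.04). Trim33 had the lowest p of the 3 (0.935-fold, adjusted p = 0.147, edgeR) and passed as lower with scaling by library size alone, under which the log2 median of all genes was -0.052; it was named after its values were seen. The 3 tested NHL-repeat genes, Trim2, Trim3 and Trim32, and the 2 tested COS-box genes, Trim36 and Trim46, had no member that passed.

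Levels were compared between genes per kilobase of exons, from GENCODE M21 lengths. The 6 highest were Trim25 (49.7 ± 3.10 CPM per kilobase with CYR61 and 46.1 ± 1.69 in controls), Trim8, Trim28, Trim30a, Trim35 and Trim47. Trim8, which encodes a ligase of cytokine signalling, had 41.3 ± 3.55 CPM per kilobase with CYR61 and 40.1 ± 0.888 in controls, and Trim28 had 27.6 ± 1.04 CPM per kilobase with CYR61 and 27.9 ± 0.818 in controls. Trim30a reached 29.1 ± 0.585 CPM per kilobase with CYR61 and 24.1 ± 1.49 in controls, so it ranked below Trim28 in controls and above it by mean with CYR61, where the difference is close to the spread. Trim35 (19.5 ± 0.555 with CYR61 and 20.03 ± 1.11 in controls) and Trim47 (19.2 ± 1.57 with CYR61 and 18.7 ± 1.00 in controls), all in CPM per kilobase, do not differ beyond their spread. In CPM, Trim8, Trim35 and Trim47 lay at 1.03-, 0.975- and 1.03-fold, with adjusted p-values of 0.631, 0.668 and 0.72 (edgeR); CYR61 replicate 1 held 172.8 CPM of Trim8 and the other CYR61 libraries 145.0 to 147.6 CPM. With the length of the longest transcript, these 6 genes kept the same ranks in controls, but with CYR61 the order of Trim30a and Trim28 turned round, at 31.7 CPM per kilobase for Trim30a and 35.4 for Trim28.

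**Figure D3:**
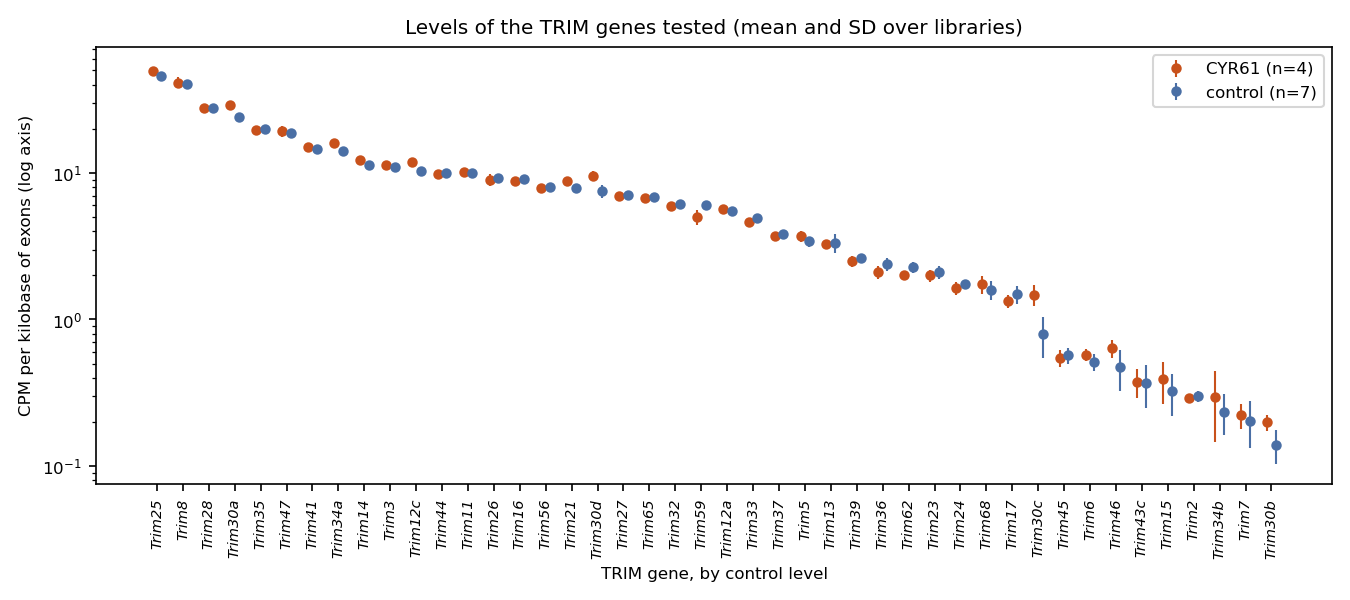
Level of each of the 44 TRIM genes tested in CPM per kilobase of exons (log axis), ordered by the control level, with mean and SD over 4 CYR61 and 7 control libraries. Trim25 is highest, at 49.7 with CYR61 and 46.1 in controls, and the CYR61 point stands clear above the control point for Trim30a, Trim30d, Trim12c, Trim21 and Trim30c and below it for Trim59.

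The control libraries also differed among themselves in the genes that rose. Control replicate 7 was the highest control for 5 of the 6 risen members and control replicate 6 was the lowest for 3 of them. Among the 10 relatives of Trim5, Trim30 and Trim34, replicate 6 was lowest for 6 and replicate 7 highest for 5. Among all 44 members tested, replicate 6 was lowest for 14 and replicate 7 highest for 10. Summed over these 10 genes, controls ran from 227.8 CPM in replicate 6 to 270.8 CPM in replicate 7, and the CYR61 libraries from 288.1 to 305.4 CPM. Over all 68 members the sums overlapped, at 1690 to 1783 CPM with CYR61 and 1624 to 1709 CPM in controls.

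**Figure D4:**
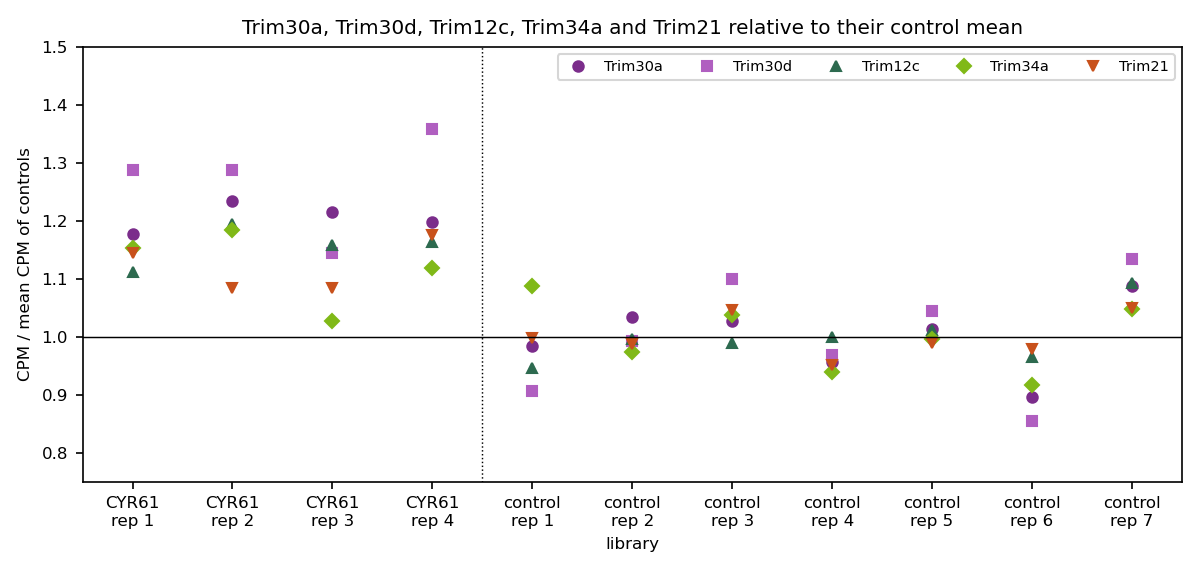
Level of Trim30a, Trim30d, Trim12c, Trim34a and Trim21 in each library divided by the gene's mean over the 7 controls; the dotted line parts the 4 CYR61 libraries from the controls, and Trim30c, with few counts, is left out. All points of the CYR61 libraries lie above 1, and among controls the points of replicate 7 lie above 1 and those of replicate 6 below it.

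TRIM proteins that carry other symbols were looked at as a list of 4, of which 3 were tested. Mefv, which encodes the inflammasome protein pyrin, rose 2.01-fold (3.89 ± 0.854 CPM with CYR61 and 1.94 ± 0.290 CPM in controls, adjusted p = 0.000308, edgeR). Pml, the organiser of nuclear bodies, rose 1.15-fold (104.9 ± 3.49 CPM with CYR61 and 91.4 ± 2.80 CPM in controls, adjusted p = 0.000507, edgeR). For each of them all CYR61 libraries lay above all controls, an order that 4.65% of all genes had. These 2 calls are 66.7% of the 3 genes tested, beside 5.33% of all genes called higher. Mid1, which acts on microtubules, measured 10.8 ± 1.33 CPM with CYR61 and 11 ± 0.893 CPM in controls (0.98-fold, adjusted p = 0.89, edgeR), and Mid2 was too low to test.

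Among 24 sensors, adaptors and cofactors that TRIM proteins act on or with, 9 rose (37.5%, beside 5.33% of all genes), 0 fell and 15 did not pass, with a median fold of 1.04; at an unadjusted p under 0.05 the counts were 10 higher and 1 lower (edgeR). The gene lower at that level was Traf6, a ligase of Toll-like receptor signalling (47.7 ± 0.577 CPM with CYR61 and 51.9 ± 2.31 CPM in controls, 0.92-fold, adjusted p = 0.0558, edgeR). It was named after its values were seen. Every CYR61 library of Traf6 lay below every control, an order that 2.5% of all genes had. In the same list 7 genes had every CYR61 library above every control, an order that 4.65% of all genes had. The lowest p-values in the list were those of Irf7, Ikbke, Ddx58 and Ifih1. Irf7, the transcription factor of the interferon response, rose 1.59-fold (150.0 ± 6.28 CPM with CYR61 and 94.5 ± 17.2 CPM in controls, adjusted p = 0.000171, edgeR), and the kinase gene Ikbke rose 1.2-fold (adjusted p = 0.000213, edgeR). Ddx58, which encodes RIG-I, the target of Trim25, rose 1.25-fold (124.7 ± 6.92 CPM with CYR61 and 99.8 ± 6.35 CPM in controls, adjusted p = 0.000222, edgeR), and Ifih1, which encodes the RNA sensor MDA5, rose 1.21-fold (adjusted p = 0.000588, edgeR). With scaling by library size alone, or without CYR61 replicates 1 and 4 together, 5 of the 24 rose. Tab2, the target of the Trim30a protein, lay at 0.983-fold and did not pass (adjusted p = 0.805, edgeR); it too was named after its values were seen.

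Of 19 genes for ubiquitin, E1 and E2 enzymes, 2 rose and 0 fell (10.5% higher, beside 5.33% of all genes), with a median fold of 1.05. Uba1, the main E1 enzyme, rose 1.08-fold (285.2 ± 4.31 CPM with CYR61 and 263.9 ± 5.33 CPM in controls, adjusted p = 0.0156, edgeR). Ube2l6, best known as the E2 enzyme of the ubiquitin-like protein ISG15, rose 1.17-fold (55.7 ± 5.82 CPM with CYR61 and 47.4 ± 3.77 CPM in controls, adjusted p = 0.0315, edgeR). Rps27a and Ube2e2, the next lowest p-values, lay at 1.06- and 1.23-fold and did not pass. Rps27a passed without CYR61 replicate 1 (adjusted p = 0.0184, edgeR) and with library quality weights (adjusted p = 0.0317, limma-voom). The 2 calls became 3 with library quality weights and with the replicate block, 0 with scaling by library size alone, and 1 without CYR61 replicate 2 or 4 or control replicate 1, 4 or 6. Of 8 genes on a list of deubiquitinases, 0 passed by the adjusted p of edgeR, DESeq2 or limma-voom, and 1 was higher at an unadjusted p under 0.05. By edgeR that gene was Usp18, and no other gene of the list reached that level. Usp18 had the lowest p of the 8, at 31.6 ± 3.12 CPM with CYR61 and 27.4 ± 3.43 CPM in controls (1.15-fold, adjusted p = 0.186, edgeR), and Otud4, Usp3 and Usp21 lay at 0.95-, 1.05- and 1.05-fold.

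**Figure D5:**
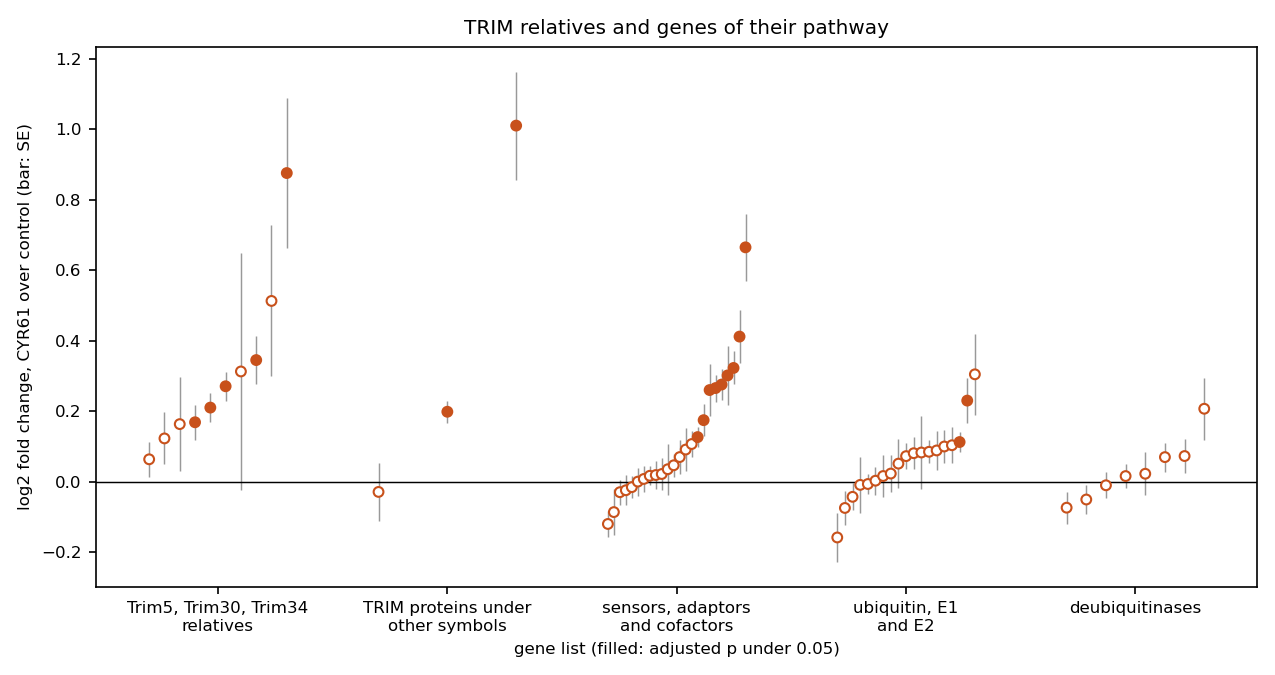
Log2 fold change, CYR61 over control, of each tested gene in 5 lists, with the SE as a bar; filled points passed an adjusted p of 0.05. The lists hold 5 of 10, 2 of 3, 9 of 24, 2 of 19 and 0 of 8 genes that rose, from left to right. Of all genes tested, 5.33% rose.

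Too few counts were found to test the other 24 members. Trim40, Trim42, Trim52, Trim54, Trim58 and Trim61 had 0 counts in every library, which allows a level of up to 0.14 to 0.197 CPM depending on the library, by counting error only. Trim10, Trim31, Trim38, Trim43b, Trim55, Trim60, Trim63, Trim67, Trim72 and Trim80 had at most 2 counts in a library, and Trim9, Trim29, Trim43a, Trim50, Trim66, Trim69, Trim71 and Trim75 at most 12. Whether these 24 genes differ between the groups was not tested in the main fit.

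The authors' deposited table of their own comparison lists 41 of the 68 members, with 5 higher and 1 lower at an adjusted p under 0.05; over the 13999 genes in the authors' deposited table, 7.85% were higher and 4.44% lower. In the authors' deposited table the log2 fold changes were 0.28 for Trim30a, 0.34 for Trim30d, 0.97 for Trim30c, 0.22 for Trim12c, 0.16 for Trim21 and -0.25 for Trim59, all past 0.05, and Trim34a had an adjusted p of 0.0641. Without CYR61 replicates 1 and 4 together, 3 TRIM genes rose (Trim30a, Trim12c and Trim30c) and 0 fell by edgeR's adjusted p.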

How the data were processed

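RNA-seq of 11 libraries was analysed. DRAGEN appears in the submitters' processing notes; its role and version, genome build, annotation and strand setting: not given in the sources used here. Expected counts (estimated counts) per Ensembl gene, not normalized, were deposited, and so were the log2 fold changes, log2 CPM, p-values and scores of the authors' own comparison. Of 55774 rows, 287 repeats of 168 IDs with identical values were dropped, 1 of them a TRIM row. Groups came from the labels.

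The rounded estimated counts went into edgeR 4.0.16 under R 4.3.3 (filterByExpr, TMM, glmQLFit, glmQLFTest, all 11 libraries, no covariates, two-sided). The biological coefficient of variation was 5.64%. Alternatives were DESeq2 1.42.0, limma-voom (limma 3.58.1) with and without library weights, other scalings, filters, thresholds and libraries. No replicate pair agreed within sampling noise (chi-square per gene 2.87 or more). CYR61 replicate 4 stood apart, at 18.7 to 32.7 against the other CYR61 libraries.

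The members and lists were chosen with earlier results of these data known. The naming rule gave Trim30a, Trim25, Trim21, all members past the threshold, the 5 highest per length of the rest, those whose groups did not overlap and the largest changes; of each pathway list, the up to 4 lowest p-values at a mean CPM of 1 or more. Lengths, exon overlaps and transcripts came from GENCODE M21 (GRCm38; 68 of 68 members matched by ID) and promoters from RefSeq GRCm38.p6 (53 of 68 members matched by symbol). Marker lists for 2 other cell types are not reported here.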

Additional observations from a re-analysis of the deposited data

Results flagged for a closer look

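In 6 of 58 groups of libraries examined, 1 library stood apart from the rest of its group by a gap test that chance passes in about 1 in 20 groups. Trim8 measured 173 CPM in CYR61 replicate 1 and 145 to 148 CPM in the other CYR61 libraries. Irf7 measured 129 CPM in control replicate 7 and 80.2 to 101 CPM in the other controls, and Pml 97.4 CPM in control replicate 7 and 88.8 to 91.9 CPM in the others. Ifih1 measured 54.0 CPM in control replicate 6 and 61.1 to 65.1 CPM in the other controls, and Usp18 20.2 CPM in control replicate 6 and 26.1 to 30.4 CPM in the others. Mefv measured 2.52 CPM in control replicate 3 and 1.66 to 2.01 CPM in the other controls.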

How the results depend on the processing

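Trim30a and Trim12c kept their direction and their call in all 23 alternatives, with log2 fold changes of 0.23 to 0.29 and 0.17 to 0.23 and adjusted p-values of at most 0.00378 and 0.016. Trim30d lost its call in 1 (without CYR61 replicates 1 and 4 together), Trim30c in 3, Trim59 in 4, Trim21 in 6 and Trim34a in 15, an adjusted p under 0.01 being among these for the last 4. The cause was not tested. The 6 higher TRIM genes became 3 without CYR61 replicates 1 and 4 together and 3 at an adjusted p under 0.01, and 4 to 6 when 1 library was left out. The 1 lower TRIM gene became 2 with scaling by library size alone, 0 without CYR61 replicates 1 and 4 together, 0 at an adjusted p under 0.01, and 0 to 1 when 1 library was left out. The 9 higher sensors and adaptors became 5 with library size alone and 5 without CYR61 replicates 1 and 4 together. The 2 higher ubiquitin, E1 and E2 genes became 0 with library size alone, 0 at an adjusted p under 0.01, 1 without CYR61 replicates 1 and 4 together, 1 to 2 when 1 library was left out, and 3 with quality weights or the replicate block. Scaling by library size alone moved the log2 median of all genes to -0.052, against -0.0076 with TMM, and the sign changes of Trim47 and Trim8 under it are no larger than that shift. Genes that did not pass and changed sign were Mid1 (log2 0.0045 with quality weights, -0.11 to 0.021 when 1 library was left out, 0.099 without CYR61 replicates 1 and 4 together), Trim28 (-0.031 to 0.0061 when 1 library was left out), Trim35 (0.0010 with the replicate block and 0.00073 in the same 8 libraries without it), Trim47 (-0.0040 with library size alone) and Trim8 (-0.0018 with library size alone, -0.020 to 0.069 when 1 library was left out, -0.013 without CYR61 replicates 1 and 4 together). Replicate numbers 1 to 4 are shared by the groups, but same-numbered libraries did not deviate together (correlations -0.034 to 0.034), so the numbers were not taken as pairs. Over all pairs of a CYR61 and a control library the correlations ran from -0.083 (CYR61 replicate 2 with control replicate 3) to 0.133 (CYR61 replicate 1 with control replicate 3). Pairing by anything other than the number was not tested. With the replicate block 4 TRIM genes were higher and 1 lower, as in the same 8 libraries without the block. Low depth limits Trim30c, Trim30b and Trim34b, and the 24 untested members.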
